A study of Mus musculus with 16 samples.

Results

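The genes followed here are 10 members of the heat shock protein families, measured in the left ventricle of mice under pressure overload. They comprise the small heat shock proteins Hspb1, Hspb8 and Cryab, the cytosolic Hsp70 chaperones Hspa1a, Hspa1b and Hspa8, the cytosolic Hsp90 gene Hsp90aa1, and the mitochondrial chaperones Hspa9, Hspd1 and Hspe1. A probe set was taken as a measure of a gene where the platform annotation gave exactly 1 gene symbol and that symbol was one of these 10. This rule took 26 of the 20380 probe sets that carry 1 symbol, 19 for the 7 cytosolic genes and 7 for the 3 mitochondrial ones.

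The series measured 16 arrays, each from the total RNA of 1 mouse, in 4 groups of 4 by operation and sex: shams and TAC mice of either sex. TAC (transverse aortic constriction) narrows the aortic arch, so that the left ventricle has to pump against a higher pressure. All mice were C57BL/6J, aged 12 to 14 weeks, and all received buprenorphine after the thoracotomy. Ketamine with isoflurane is given as the anaesthesia of the TAC groups and is not stated for the sham groups, and the ventricle was taken at day 14 after either operation. The design asks how expression under pressure overload compares between the sexes, with the 4 arrays of a group described as biological replicates.

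Chaperones bind unfolded or partly folded proteins and keep them from aggregating. Small heat shock proteins hold clients without using ATP, whereas Hsp70 and Hsp90 proteins bind and release them in cycles driven by ATP and steered by co-chaperones. In mitochondria, the Hsp70 protein encoded by Hspa9 helps to pull imported proteins across the inner membrane, and the chaperonin built from Hspd1 (Hsp60) and its lid Hspe1 (Hsp10) folds many of them in an enclosed chamber. In heart muscle, Cryab and Hspb1 are abundant proteins that associate with desmin, titin and the Z-disc, and Hspb8 works with Bag3 in the disposal of damaged sarcomere proteins. Heat shock factors bind arrays of the unit nGAAn in inverted repeats, called heat shock elements, in front of many chaperone genes.

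The promoters are shown first, as a description. No promoter was at hand for Cryab, Hspa8, Hsp90aa1 or Hspa9, and the other members all carry letters of the heat shock element. RefSeq promoters of GRCm38.p6, from 250 bases before to 50 after a start site, were matched for 6 of the 10 genes, and there were 7 because Hspd1 has 2 starts. Each was searched on both strands for 2 inverted units, GAANNTTC or TTCNNGAA, and for 3 units, GAANNTTCNNGAA or TTCNNGAANNTTC. A match to 3 units also contains matches to 2 units. Capitals mark the bases of the matched units, and each stretch is written in the direction of its own gene.
Hspd1: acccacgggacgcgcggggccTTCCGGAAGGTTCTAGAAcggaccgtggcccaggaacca
Hspe1: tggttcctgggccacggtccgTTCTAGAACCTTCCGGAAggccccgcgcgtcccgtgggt
Hspb1: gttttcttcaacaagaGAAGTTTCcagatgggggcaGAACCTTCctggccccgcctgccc
Hspa1a: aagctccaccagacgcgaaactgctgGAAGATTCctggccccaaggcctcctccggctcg
Hspa1b: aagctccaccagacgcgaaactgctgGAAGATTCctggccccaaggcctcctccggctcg
Hspb8: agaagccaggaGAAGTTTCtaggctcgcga

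The Hspd1 and Hspe1 lines are the same 60 bases, chr1:55088038-55088097, read on the minus and the plus strand. Hspd1 is read on the minus and Hspe1 on the plus strand, and the table gives 2 starts for Hspd1. From 1 of them the transcripts run away from each other, with starts 216 bases apart, and from the other, 95 bases inside the Hspe1 transcript, they overlap. The matches to 2 units begin 89, 84 and 79 bases before the Hspe1 start and overlap, so the run is longer than 3 units. The Hspb1 stretch is chr5:135887786-135887845 on the plus strand, with matches 117 and 97 bases before the start. On the minus strand lie Hspa1a (chr17:34972227-34972286), Hspa1b (chr17:34959309-34959368) and Hspb8 (chr5:116422844-116422873). The match lies 104 bases before the start in both Hspa1 genes and begins at base 3 after the start in Hspb8.

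A match to 2 units was present in 4946 of the 32851 promoters of the same length (15.1%) and in 6 of these 7. A match to 3 units was present in 198 promoters (0.603%), among them only those of Hspd1 and Hspe1 here, which share it. Among 74 other chaperone and regulator genes with a promoter in the table, 16 had 2 units and 3 had 3 units, namely Chordc1, Dnajb6 and Hsph1. Over the full 300 bases the promoters of Hspa1a and Hspa1b differed at 4 positions (98.7% identical). A match is a run of letters and was not tested as a binding site.

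Of the 26 probe sets, 21 passed the filter on dim probe sets: 16 for 6 cytosolic genes and 5 for 3 mitochondrial genes. The filter left out the 40% of probe sets with the lowest mean over the 16 arrays, which corresponds to a signal of about 130.8. The only probe set of Hspa1a fell below that limit, as did 1 of 3 for Cryab, 1 of 3 for Hspa1b and 2 of 4 for Hspa9. Signals are the authors' array signals on a linear scale and are compared only between arrays, not between probe sets. Where TAC and sham arrays are said not to overlap, this describes the member alone. The share of all probe sets with such a separation is not given here. Differences are TAC minus sham on the log2(signal + 16) scale with their standard error (SE), and a gene is said to have risen or fallen where the Benjamini-Hochberg adjusted p of limma, over all 13576 probe sets tested, was below 0.05.

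The groups also differed in measures other than the chaperones. The 3' to 5' ratio of the Gapdh control lay between 0.785 and 0.921 on the 8 sham arrays and between 0.958 and 1.16 on the 8 TAC arrays, with no overlap. The same ratio of the actin control lay between 1.33 and 1.59 on sham and between 1.39 and 1.98 on TAC arrays. The log2 signal of the 18S rRNA control was 10.7 to 13.8 on sham and 9.06 to 13.2 on TAC arrays, the last being male TAC 5. Of 10 ventricular cardiomyocyte markers 8 fell (median -0.35 over both sexes), and their summed signal was 324508 to 390066 in male sham, 272972 to 326134 in male TAC, 333477 to 355037 in female sham and 236062 to 296996 in female TAC. Of 9 fibroblast markers 5 rose (median 1.43), with sums of 18107 to 21769, 32339 to 57077, 21379 to 24931 and 30463 to 45022 in the same order. Of 8 macrophage markers that passed the filter 5 rose (median 0.39), with sums over all 9 of 8155 to 11309, 12149 to 12988, 8422 to 9289 and 9969 to 14676. Of 8 endothelial markers 1 rose, of 4 smooth muscle markers 2 rose, and the atrial marker Myl4 rose. None of the 6 skeletal muscle markers passed the filter. In tissue RNA, fewer cells of a type and less RNA per cell cannot be told apart. The 18S, Gapdh and actin measures enter the covariate fits given below. The part of the cell marker differences in the chaperone results was not tested.

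Over both sexes, 9 of the 16 cytosolic probe sets rose, for 5 genes, and 0 fell, whereas 0 of the 5 mitochondrial probe sets rose and 2 fell, for Hspa9 and Hspd1. Among all 13576 probe sets, 12.9% rose and 15.8% fell in the same comparison. The median difference was 0.46 over the cytosolic probe sets and -0.06 over the mitochondrial ones, beside -0.03 over all probe sets. An unadjusted p below 0.05 was reached by 15 of the 21 and by 5278 of all probe sets (38.9%). In males 5 of the 16 cytosolic probe sets rose (8.07% of all rose), for Hspb1, Hspb8, Hspa8 and Hsp90aa1, and 2 of the 5 mitochondrial ones fell (9.77% of all fell). In females 6 of 16 rose (6.46% of all), with Hspa1b added to the same genes, and 1 of 5 fell (8.6% of all). The cytosolic median was 0.37 in males and 0.57 in females, and the mitochondrial median was -0.08 and -0.04. These counts include only members that passed the filter, and several probe sets measure the same gene. The Hspa1b call rests on 1427127_x_at, which passed the filter through its TAC signals alone, so its presence among the probe sets tested depended on its being high in TAC. Without it, 8 of 15 cytosolic probe sets rose over both sexes, for 4 genes, as did 5 of 15 in males and 5 of 15 in females.

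The direction of all calls together depended on the scaling. As deposited, 45.2% of the calls in males, 42.9% in females and 44.9% over both sexes were rises, and after centring each array on its median these shares were 54.7%, 64.4% and 60.3%. Among the 21 member probe sets, median centring gave 5 higher and 1 lower in males, 10 and 0 in females and 12 and 1 over both sexes, against 5 and 2, 6 and 1, and 9 and 2 as deposited. Quantile normalization gave 5 and 2, 8 and 1, and 11 and 2. No member probe set that was called changed sign with either scaling.

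**Figure D1:**
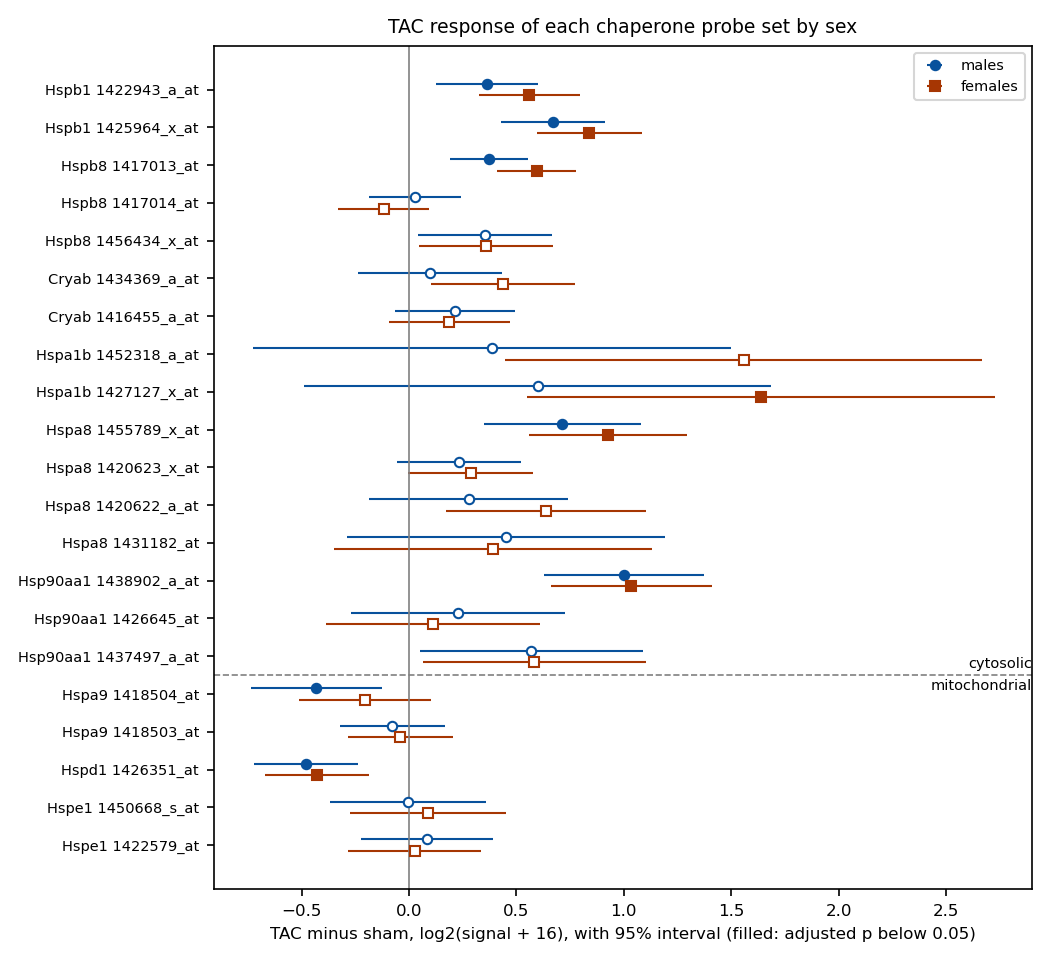
TAC minus sham on the log2(signal + 16) scale for each of the 21 chaperone probe sets that passed the filter, males as circles and females as squares, with 95% intervals from limma; filled symbols have an adjusted p below 0.05. Filled symbols lie to the right of 0 for cytosolic genes, above the dashed line, and to the left of 0 for Hspa9 and Hspd1, and probe sets of the same gene differ in size.

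Hspb1, which encodes Hsp27, a small heat shock protein that binds actin and unfolded proteins, rose in both sexes on both of its probe sets. On 1425964_x_at the signals were 4670, 4768, 4691 and 6385 in male sham and 8173, 7801, 7029 and 9570 in male TAC. In females they were 4344, 4272, 4946 and 5431 in sham and 8146, 8839, 8401 and 8511 in TAC. All 8 TAC arrays lay above all 8 sham arrays, and male sham 4 was the highest of the shams. The difference was 0.67 ± 0.12 (SE) in males, a 1.59-fold rise (adjusted p = 0.000452), and 0.84 ± 0.12 in females, a 1.79-fold rise (adjusted p = 7.1e-05). Over both sexes it was 0.75 ± 0.08 (adjusted p = 1e-06), a call that held in each alternative run, the Gapdh and actin ratios as covariates included. In males alone adding the Gapdh ratio as a covariate ended the call (adjusted p = 0.217).

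The other Hspb1 probe set, 1422943_a_at, changed less. Its mean signal rose from 13081 ± 1181 (SD, n = 4) to 17031 ± 3526 in males and from 11544 ± 297 to 17073 ± 1491 in females. In females every TAC array lay above every sham array, while in males TAC 1, at 14298, lay below sham 4, at 14371. The difference was 0.36 ± 0.11 in males (adjusted p = 0.0309) and 0.56 ± 0.11 in females (adjusted p = 0.0021). The male call was lost without male TAC 5 (signal 22170), without male sham 1 and without male sham 2, within a range of adjusted p from 0.00241 to 0.175 over its alternatives.

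Hspb8, the small heat shock protein that pairs with Bag3 in chaperone-assisted autophagy, rose in both sexes on its brightest probe set, 1417013_at. Signals were 4852, 5124, 4864 and 5178 in male sham, 6828, 6681, 6469 and 5977 in male TAC, 4064, 4232, 4473 and 4654 in female sham and 5830, 6778, 6649 and 7115 in female TAC. Every TAC array lay above every sham array. The rise was 1.29-fold in males (0.37 ± 0.09, adjusted p = 0.00544) and 1.51-fold in females (0.59 ± 0.09, adjusted p = 0.000132). The call over both sexes ended once the Gapdh ratio entered as a covariate (adjusted p = 0.119), and that in males also with the 18S signal.

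The 3 probe sets of Hspb8 did not move alike. On 1456434_x_at the difference over both sexes was 0.36 ± 0.11 (adjusted p = 0.0154), and neither sex passed alone (adjusted p = 0.116 and 0.118). On 1417014_at signals were 2306 to 2626 in male sham, 2321 to 2586 in male TAC, 2496 to 2680 in female sham and 2123 to 2864 in female TAC. There the difference was -0.05 over both sexes, with a 95% interval from -0.20 to 0.10 (adjusted p = 0.685). Within each array, the log2 signal of 1417013_at minus that of 1417014_at was higher on all 8 TAC arrays (1.21 to 1.67) than on all 8 sham arrays (0.60 to 1.15). Which transcripts each probe set detects was not analysed here.

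Cryab, which encodes αB-crystallin, a chaperone of desmin filaments and titin, did not pass on either of its bright probe sets. On 1434369_a_at the signals were 22634, 21199, 24859 and 23236 in male sham and 29654, 21675, 20260 and 27782 in male TAC. In females they were 11868, 22418, 20359 and 16261 in sham and 19338, 26959, 24537 and 23229 in TAC. The groups overlapped in both sexes, and female sham 1 had the lowest signal of the 16 arrays. The difference was 0.10 ± 0.16 in males (adjusted p = 0.745), 0.44 ± 0.16 in females (adjusted p = 0.0734) and 0.27 ± 0.11 over both (adjusted p = 0.086). On 1416455_a_at it was 0.20 over both sexes, with a 95% interval from 0.00 to 0.40 (adjusted p = 0.126). Quantile normalization brought both probe sets past the threshold over both sexes (0.39, adjusted p = 0.0118, and 0.27, adjusted p = 0.0144). The dim probe set 1435837_at ranged from 50 to 368.

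**Figure D2:**
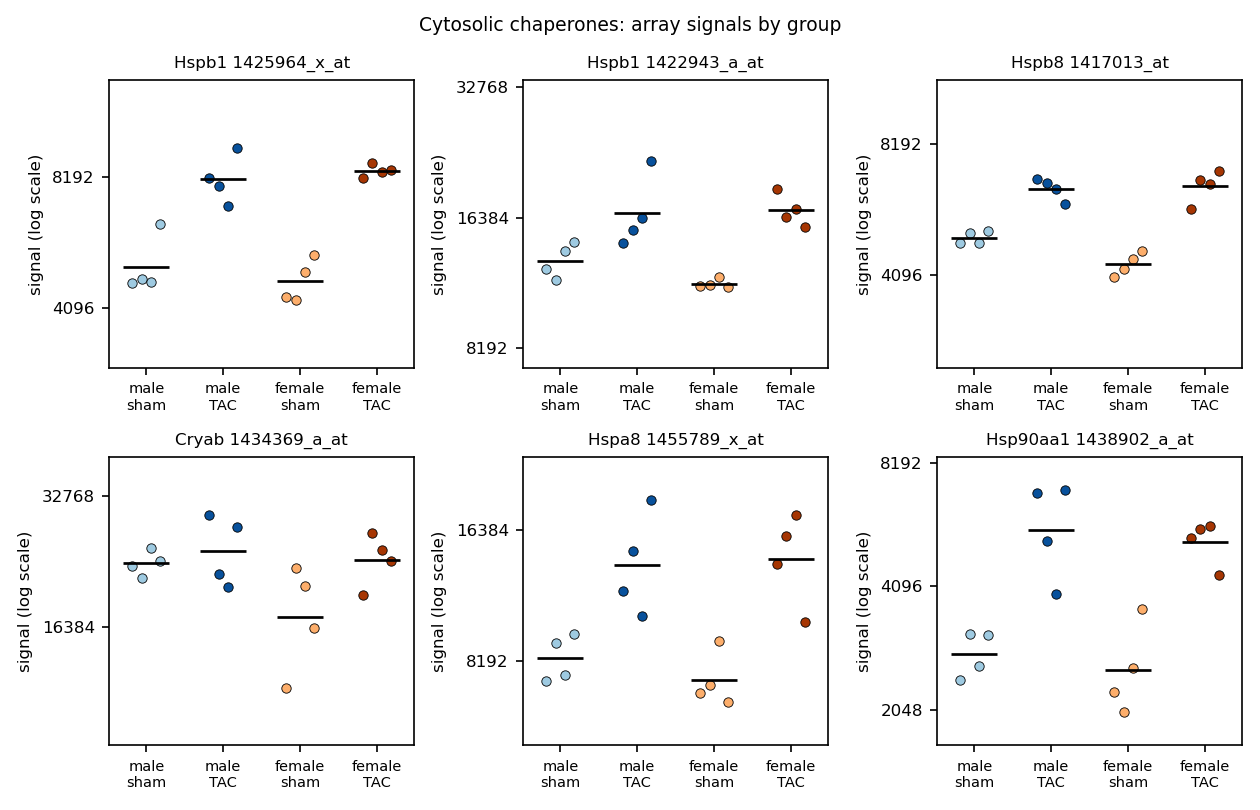
Array signals, on log axes, of 5 cytosolic chaperone genes on 6 probe sets in the shams and TAC mice of each sex; points are single arrays in replicate order and bars the group means of the log2 signal (n = 4). TAC points lie above all sham points for Hspb1 1425964_x_at, Hspb8 1417013_at, Hspa8 1455789_x_at and Hsp90aa1 1438902_a_at, while Cryab overlaps.

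The inducible Hsp70 genes Hspa1a and Hspa1b encode nearly the same protein, lie next to each other and have close to identical sequences, so their probe sets may take up each other's transcripts and are reported as uncertain between these genes. On the Hspa1a probe set 1452388_at, which is below the filter, the signals were 37, 91, 47 and 18 in male sham and 289, 136, 177 and 194 in male TAC. They were 114, 14, 102 and 10 in female sham and 1594, 369, 376 and 125 in female TAC. All 8 TAC arrays lay above all 8 sham arrays, and female TAC 1 had the highest signal. Detection calls were not used here, so the sham values cannot be told from an undetected transcript.

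Fitted with all 22626 probe sets without controls, of which 16.7% were called over both sexes, 9.46% in males and 7.89% in females, Hspa1a rose by 2.34 ± 0.45 over both sexes (adjusted p = 0.000778) and by 2.86 ± 0.63 in females (adjusted p = 0.00622). In males it did not pass (1.82 ± 0.63, adjusted p = 0.0793). At these signals the pseudocount holds the difference down. The call over both sexes held without each array in turn and was lost with each of the 3 quality covariates.

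Hspa1b gave a similar picture. On 1427127_x_at the signals were 114, 143, 99 and 91 in male sham, 208, 165, 148 and 186 in male TAC, 153, 85, 112 and 153 in female sham and 2122, 375, 304 and 113 in female TAC. In males every TAC array lay above every sham array. In females 3 TAC arrays lay above all shams, and TAC 5, at 113, lay among them. The sham means of 112 and 126 lie below the filter's limit and the TAC means of 177 and 729 above it, so this probe set passed through TAC alone. The difference was 0.60 ± 0.52 in males (adjusted p = 0.487), 1.64 ± 0.52 in females (adjusted p = 0.0387) and 1.12 ± 0.37 over both (adjusted p = 0.0276). With no filter, over all 22626 probe sets, the adjusted p was 0.0646 in females, which ends that call, and 0.0465 over both sexes. The female call was lost without female TAC 1, female TAC 2 or any 1 of the 4 female shams, and the call over both sexes without female sham 2.

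On 1452318_a_at the 4 female TAC arrays read 3008, 639, 380 and 160 against 143 to 248 in female sham, a difference of 1.56 ± 0.53 that did not pass (adjusted p = 0.0541). In males it was 0.39 (adjusted p = 0.681). The dim probe set 1427126_at read 1034 on female TAC 1 and 248, 189 and 99 on the other female TAC arrays, against 28 to 142 in female sham (1.85 ± 0.52, adjusted p = 0.0319). On all 4 probe sets of the Hspa1 genes, female TAC 1 was the highest of the 16 arrays.

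**Figure D3:**
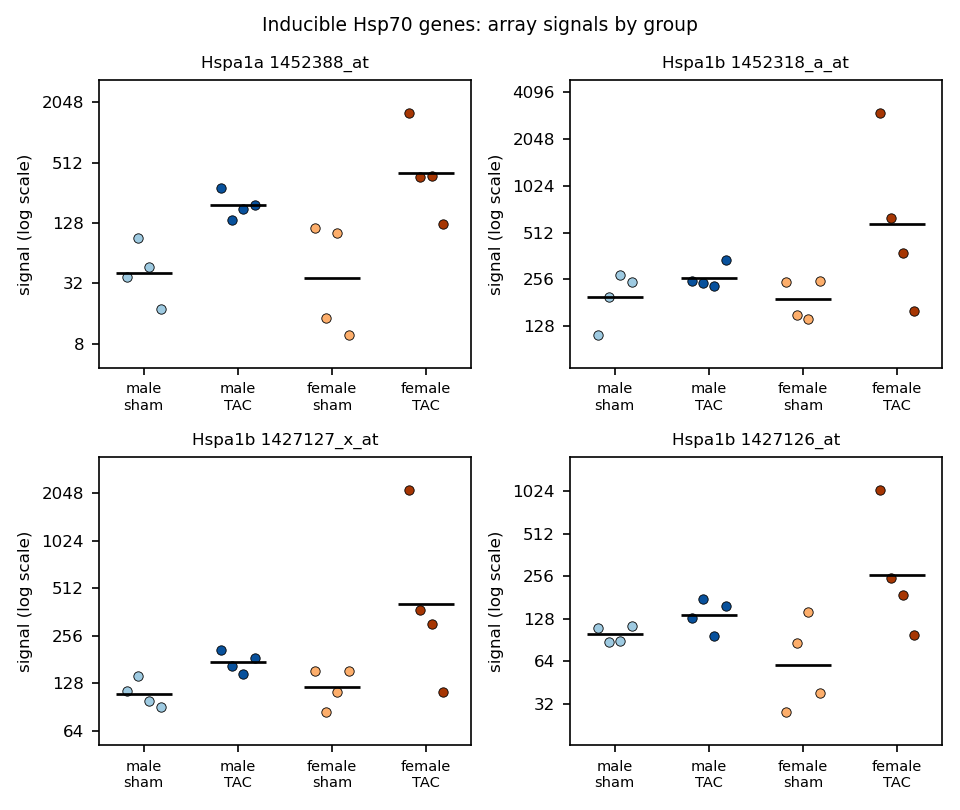
Array signals, on log axes, of the 4 probe sets of Hspa1a and Hspa1b in the 4 groups; points are single arrays in replicate order and bars the group means of the log2 signal (n = 4). Female TAC spans from 125 to 1594 on the Hspa1a probe set and from 113 to 2122 on Hspa1b 1427127_x_at, with TAC 1 highest and TAC 5 lowest, while the male TAC arrays lie closer together.

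Hspa8, the constitutive cytosolic Hsp70 that also uncoats clathrin vesicles and feeds chaperone-mediated autophagy, rose in both sexes on 1455789_x_at. The signals were 7370, 8998, 7589 and 9424 in male sham, 11859, 14606, 10384 and 19148 in male TAC, 6888, 7189, 9082 and 6583 in female sham and 13692, 15840, 17743 and 10041 in female TAC. The TAC arrays again lay above all shams. The rise was 1.64-fold in males (0.71 ± 0.18, adjusted p = 0.00735) and 1.90-fold in females (0.93 ± 0.18, adjusted p = 0.00128). The call over both sexes (0.82 ± 0.12, adjusted p = 4.67e-05) was lost with the Gapdh ratio as a covariate (adjusted p = 0.208).

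The other 3 Hspa8 probe sets had smaller differences. On 1420622_a_at the difference over both sexes was 0.46 ± 0.16 (adjusted p = 0.0343), a call lost in 15 of 28 alternatives. Among those were the ones without male TAC 1, 2 or 4, female TAC 1 or 2, male sham 3 or 4 and female sham 1 or 4, and adjusted p ranged from 0.00261 to 0.874. On 1420623_x_at it was 0.26 ± 0.10 (adjusted p = 0.0535) and on the dim 1431182_at 0.42 ± 0.25 (adjusted p = 0.229). Within arrays, 1455789_x_at minus 1420623_x_at was higher by 0.48 in male TAC and by 0.64 in female TAC than in the shams of the same sex, and 6 of the 8 TAC arrays lay above all shams. Probe sets with the suffix _x_at hold some probes that match other transcripts, which was not resolved here.

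Hsp90aa1, the stress-responsive cytosolic Hsp90 that matures kinases and steroid receptors, had the largest called difference of the members that passed the filter in males. On 1438902_a_at the signals were 2419, 3128, 2622 and 3108 in male sham and 6908, 5270, 3922 and 7005 in male TAC. They were 2261, 2022, 2579 and 3599 in female sham and 5351, 5653, 5748 and 4367 in female TAC. No TAC array overlapped the shams, whose highest was female sham 4 and whose nearest TAC array was male TAC 4. The rise was 2.00-fold in males (SE 0.18 on the log2 scale, adjusted p = 0.000587) and 2.05-fold in females (1.04 ± 0.18, adjusted p = 0.000555). The call over both sexes (adjusted p = 5.13e-06) was lost with the Gapdh ratio as a covariate (adjusted p = 0.0834) and held with the actin ratio.

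On 1437497_a_at Hsp90aa1 rose by 0.58 ± 0.18 over both sexes (adjusted p = 0.0179) and passed in neither sex alone, and on 1426645_at it did not pass (0.17 ± 0.17, adjusted p = 0.497). The signals of 1437497_a_at were 615 to 1036 in male sham, 848 to 1921 in male TAC, 774 to 1068 in female sham and 888 to 2191 in female TAC, so the groups overlapped. Female TAC 1 was the highest array on both of these probe sets, as it was for the Hspa1 genes. Hsp90ab1, the other cytosolic Hsp90 gene, had no probe set with a single symbol equal to it.

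Hspd1, the chamber of the mitochondrial chaperonin, fell in both sexes on its single probe set, 1426351_at. The signals were 6366, 6813, 7281 and 6081 in male sham and 4530, 3980, 5872 and 4768 in male TAC. In females they were 7335, 6483, 6861 and 7007 in sham and 5818, 4756, 4460 and 5625 in TAC. All 8 TAC arrays lay below all 8 sham arrays, the nearest being male TAC 4 and male sham 4. The fall was 1.40-fold in males (-0.48 ± 0.12, adjusted p = 0.00619) and 1.35-fold in females (-0.43 ± 0.12, adjusted p = 0.0151). The female call was lost without female TAC 3 and after median centring (-0.31, adjusted p = 0.0777). It was also lost with the 18S signal, the Gapdh ratio or the actin ratio as a covariate. The male call was lost with the 18S signal and with the actin ratio. The call over both sexes (-0.45 ± 0.08, adjusted p = 0.000265) was lost with the Gapdh or the actin ratio as a covariate.

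Hspe1, the lid of the same chaperonin and the neighbour that shares the run of units shown above, passed on neither probe set. On 1450668_s_at the signals were 2596, 4856, 4415 and 5104 in male sham, 4094, 4073, 4041 and 4155 in male TAC, 4134, 3739, 3944 and 5063 in female sham and 5299, 3810, 3628 and 5355 in female TAC. These groups overlapped, and male sham 1 was the lowest array. The difference was 0.04 over both sexes, with a 95% interval from -0.22 to 0.30 (adjusted p = 0.845). On 1422579_at it was 0.05, from -0.16 to 0.27 (adjusted p = 0.744). Within arrays, log2 Hspd1 minus log2 Hspe1 was lower by 0.48 in male TAC and by 0.51 in female TAC than in the shams of the same sex, and 5 of 8 TAC arrays lay below all shams. That ratio shows unequal change of the 2 probe sets and was not tested.

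Hspa9, which encodes the mitochondrial Hsp70 mortalin, differed between its probe sets. On 1418504_at the signals were 3317, 3239, 3430 and 3388 in male sham and 2659, 2606, 2315 and 2335 in male TAC. In females they were 2455, 3279, 3296 and 3201 in sham and 2488, 3744, 1960 and 2627 in TAC. The male groups did not overlap and the female groups did, with female TAC 2 the highest of the 16 arrays. It fell in males (-0.43 ± 0.15, adjusted p = 0.0462) and over both sexes (-0.32 ± 0.10, adjusted p = 0.0256), and did not pass in females (-0.20 ± 0.15, adjusted p = 0.393). The male call was lost in 15 of 21 alternatives, among them the loss of any 1 male array, with adjusted p from 0.0119 to 0.208. The call over both sexes was lost in 8 of 28, among them without female TAC 3, female sham 2 or female sham 3, with adjusted p from 0.00155 to 0.194.

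On 1418503_at Hspa9 differed by -0.06 over both sexes, with a 95% interval from -0.23 to 0.11 (adjusted p = 0.638). A dim probe set below the filter, 1431274_a_at, had the largest fall of all members. Its signals were 640, 59, 535 and 395 in male sham, 49, 30, 72 and 52 in male TAC, 237, 461, 330 and 324 in female sham and 32, 29, 53 and 67 in female TAC. The female groups did not overlap, and in males only sham 2 lay among the TAC arrays. In the fit without the filter it fell by 2.43 ± 0.36 over both sexes on the log2(signal + 16) scale (adjusted p = 6.23e-05), a call lost with the Gapdh ratio as a covariate (adjusted p = 0.237). The fourth probe set, 1453811_at, stayed between 3 and 79 on all arrays and did not pass.

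**Figure D4:**
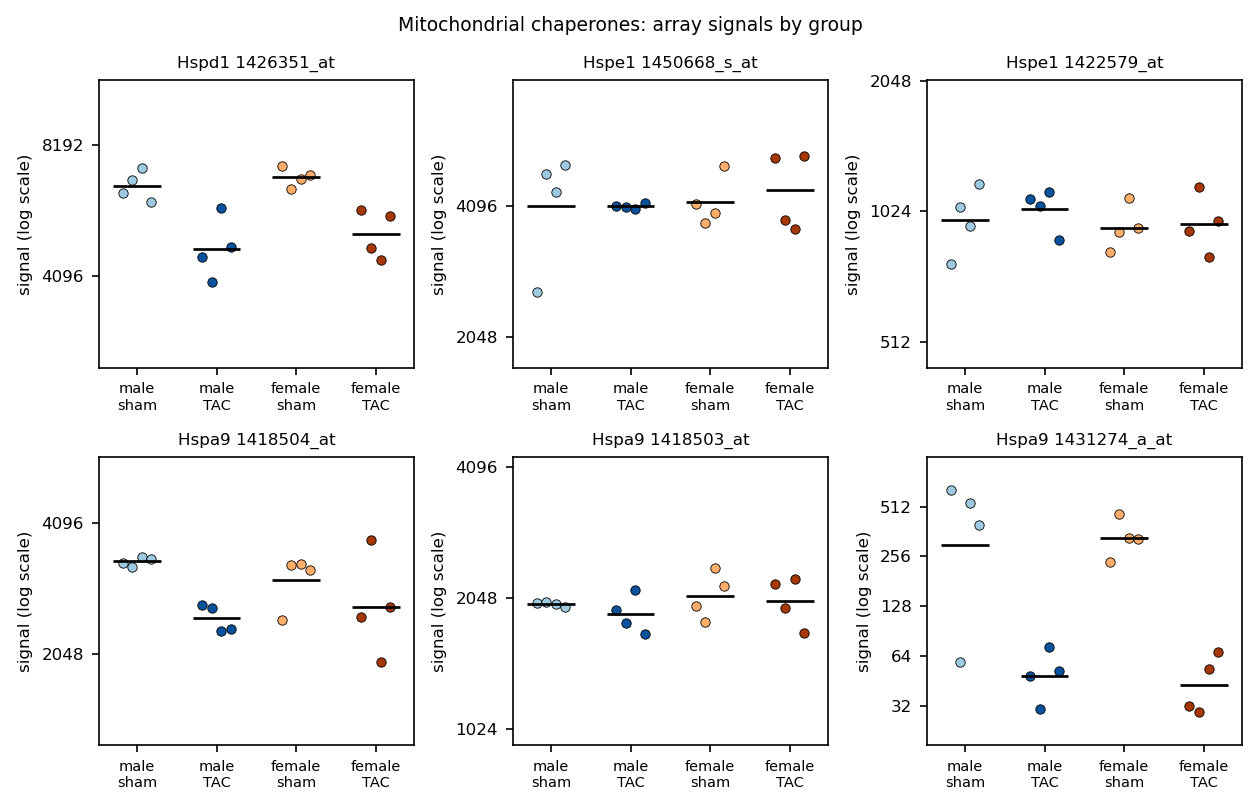
Array signals, on log axes, of the mitochondrial chaperone genes Hspd1, Hspe1 and Hspa9 on 6 probe sets in the 4 groups; points are single arrays in replicate order and bars the group means of the log2 signal (n = 4). All 8 TAC points lie below the sham points for Hspd1, both Hspe1 panels overlap, and the 3 Hspa9 panels range from overlap on 1418503_at to a fall from 237 to 461 in female sham to 29 to 67 in female TAC on 1431274_a_at.

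The compartments were set against each other within each array. For each gene the probe set of highest mean was taken, its log2(signal + 16) was centred on the mean over the 16 arrays, and the mean of the 3 mitochondrial genes was subtracted from that of the 6 cytosolic genes that passed the filter. This measure lay between -0.44 and -0.30 in male sham, 0.13 and 0.71 in male TAC, -0.56 and -0.51 in female sham and -0.07 and 0.79 in female TAC. All TAC arrays lay above all sham arrays, with female TAC 5 the lowest of them. TAC minus sham was 0.80 in males and 1.03 in females, with a pooled SD between arrays of a group of 0.23. The cytosolic mean contributed 0.49 in males and 0.85 in females, and the mitochondrial mean -0.31 and -0.18. The cytosolic mean includes Hspa1b 1452318_a_at, which was called in neither sex and ranged from 160 to 3008 in female TAC. Averaged over the sexes, TAC minus sham was 0.91, and 0.74 with the mean of all passing probe sets of each gene. Since the genes were chosen with results known, the measure is a description with no p.

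**Figure D5:**
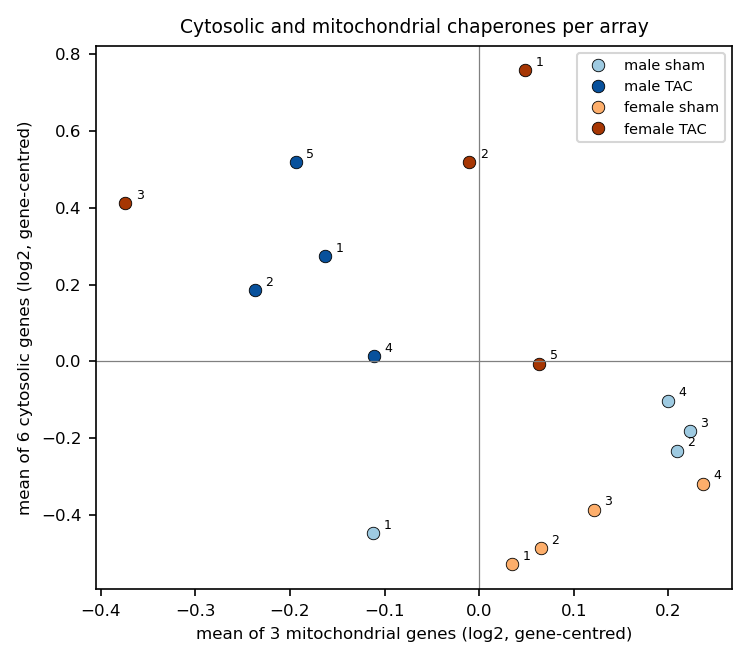
Each array placed by the gene-centred mean log2(signal + 16) of the 3 mitochondrial genes (horizontal axis) and of the 6 cytosolic genes (vertical axis), with numbers giving the replicate and colours the group. The TAC arrays lie above the sham arrays on the vertical axis, with male TAC 4 and female TAC 5 near 0, and on the horizontal axis male TAC 4 and female TAC 1, 2 and 5 lie within the range of the shams.

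The response of the members was not shown to differ between the sexes. In the test of the female minus the male response, 0 of the 21 probe sets were called by limma, as were 0% of all 13576, and 0 of them had an unadjusted p below 0.05, against 897 of all probe sets (6.61%). For Hspb1 1425964_x_at the female response exceeded the male one by 0.17, with a 95% interval from -0.17 to 0.51, for Hspa8 1455789_x_at by 0.21 (-0.31 to 0.73), for Hsp90aa1 1438902_a_at by 0.03 (-0.49 to 0.56) and for Hspd1 by 0.05 (-0.29 to 0.39). The interval was widest among the passing members for Hspa1b 1452318_a_at, at 1.17 (-0.40 to 2.74), where the female TAC arrays spread over more than a factor of 10.

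Between female and male shams 0 of the 21 member probe sets were called, with 0.309% of all probe sets called, and between female and male TAC arrays 0 of them, with 0.0663% of all. An unadjusted p below 0.05 was reached by 3 of the 21 member probe sets in each comparison, against 1424 (10.5%) and 874 (6.44%) of all probe sets. In sham these were Hspb8 1417013_at (-0.20, female minus male), Hspb8 1456434_x_at (-0.42) and Cryab 1434369_a_at (-0.41). In TAC they were Hspb8 1456434_x_at (-0.42) and the Hspa1b probe sets 1452318_a_at (1.13) and 1427127_x_at (1.17).

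Other chaperone genes were counted from fixed lists, 1 probe set per gene, that of highest mean. On that basis 13.4% of 8272 genes rose and 13.1% fell over both sexes, with a median of -0.01. Of 4 other small heat shock protein genes 2 rose, with a median of 0.32. Hspb3, a muscle member, rose by 0.38, from a mean signal of 754 ± 39 (SD, n = 4) to 1108 ± 105 in males and from 706 ± 109 to 814 ± 52 in females. Hspb11, which carries the family's name but serves intraflagellar transport, rose by 0.56. Hspb7, a bright cardiac member that binds filamin C, did not pass (0.26, adjusted p = 0.127), nor did Hspb2, which lies next to Cryab (0.22). Hspb6 had no single-symbol probe set.

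Of 5 other cytosolic Hsp70 and Hsp110 genes 3 rose, with a median of 0.36. Hspa2, a close relative of Hspa8, rose by 0.87, from 262 ± 97 to 365 ± 91 in males and from 123 ± 42 to 307 ± 75 in females. Hsph1, the Hsp110 that exchanges nucleotide on Hsp70 and 1 of the 3 list genes with a 3-unit match, rose by 0.61 (adjusted p = 0.0132), with female TAC arrays from 780 to 2177, and its other probe set differed by 0.01. Hspa4, another Hsp110, rose by 0.36, while its other probe sets differed by -0.53 and 0.23, and 1 of these was called.

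Co-chaperones were counted next. Of 14 Hsp40 genes, which deliver clients to Hsp70 and stimulate its ATPase, 1 rose and 2 fell (median 0.08). Dnaja2 fell by 0.65 (adjusted p = 1.41e-05), from 1438 ± 177 to 1009 ± 16 in males and from 1818 ± 225 to 1039 ± 127 in females, with -0.10 on its other probe set. Dnajc21 fell by 0.31 and Dnaja4 rose by 0.42, calls lost under 18 and 17 of 28 alternatives. The other 2 probe sets of Dnaja4 differed by -0.16 and 0.14 and were not called. Dnajb1, a classic heat-inducible Hsp40, did not pass (0.26, adjusted p = 0.389), with female TAC arrays from 419 to 2041. Dnajb6, which has a 3-unit match like Hsph1 and Chordc1, was not called either.

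Of 17 Hsp90 and Hsp70 co-chaperones 2 rose and 0 fell (median 0.02). St13, an Hsp70 co-chaperone, rose by 0.52, and Chordc1, an Hsp90 partner with a 3-unit match, by 0.42. Ahsa1, the activator of the Hsp90 ATPase, did not pass (0.24), nor did Bag3, the partner of Hspb8 (0.11, adjusted p = 0.249), whose mean signal was 3124 ± 206 in male sham, 3190 ± 350 in male TAC, 3047 ± 116 in female sham and 3491 ± 198 in female TAC.

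Of 13 subunits of the cytosolic chaperonin TRiC and of prefoldin, which fold actin and tubulin, 4 rose and 0 fell (median 0.20). They were Cct3 (0.49, adjusted p = 0.000296), Cct8 (0.32), Tcp1 (0.21) and Pfdn1 (0.33). Of 4 other probe sets of Cct3, 3 had the same sign and 1 differed by -0.43. Of the heat shock factor list, Hsf4 differed by -0.70 (adjusted p = 0.0523) and Hsbp1, a binding partner of heat shock factor trimers, by -0.14, and neither passed. Hsf1 had no single-symbol probe set and Hsf2 was below the filter.

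Mitochondrial chaperones and proteases outside the members did not move in 1 direction. Their counts lay near the shares of all genes, of which 13.4% rose and 13.1% fell. Of 10 other mitochondrial chaperones 1 rose and 1 fell (median -0.01): Timm44, which tethers Hspa9 to the import channel, rose by 0.26, and Hscb, an iron-sulphur cluster co-chaperone of Hspa9, fell by 0.36. Timm44 went from 3629 ± 231 to 3783 ± 394 in males and from 2653 ± 597 to 3595 ± 337 in females. Its other 2 probe sets differed by -0.07 and 0.26 and were not called. Trap1, the mitochondrial Hsp90, did not pass (-0.20, adjusted p = 0.166), and its other probe set differed by 0.19. Of 10 mitochondrial proteases 1 rose and 2 fell (median 0.10). Clpx, the unfoldase that feeds the ClpP protease, fell by 1.20 ± 0.11 (adjusted p = 7.34e-08), from 1348 ± 179 to 573 ± 104 in males and from 1156 ± 164 to 495 ± 21 in females. That call held in all 28 alternatives, with differences from -1.29 to -0.96. Oma1 fell by 0.29 and Afg3l2 rose by 0.34, and Lonp1, the matrix protease, did not pass (0.31, adjusted p = 0.088). The other probe set of Afg3l2 differed by -0.02 and was not called.

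For each member that passed the filter, the gene outside the set with the most similar deviations from the group means over the 16 arrays was looked up, as a description. Hspb1 was closest to Dnajb4, an Hsp40 gene (r = 0.93), and Hspa1b to Dnaja1, another Hsp40 gene (r = 0.81). Hspd1 was closest to Acaa2, a thiolase of mitochondrial fat oxidation (r = 0.92). The closest genes of the others were Nrarp for Hspb8 (r = 0.90), Ppp1r11 for Cryab (r = 0.89), Scfd1 for Hspa8 (r = 0.89), Necab2 for Hsp90aa1 (r = 0.84), Tmem123 for Hspa9 (r = 0.86) and Nop10 for Hspe1 (r = 0.84). Each is the highest of the correlations with all other genes tested. The arrays of a group also differ in the RNA quality measures and in the marker sums, so a high r is no finding. The deviations of the 2 Hspb1 probe sets correlated with each other at only 0.47.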

How the data were processed

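Total RNA of the left ventricle was hybridised to 16 mouse 430A arrays. The authors deposited 1 linear signal intensity per probe set, computed with GCOS, per the submitters' processing notes. The GCOS version and settings are not given in the sources used here. On each array the mean of the deposited intensities, with 2% trimmed from each end, was about 500.2, so they had been scaled to a common level, which was kept.

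The platform annotation gave 1 symbol for 20380 probe sets, several for 691 and none for 1555. The 64 control probe sets and the dimmest 40% of the rest were left out, which left 13576. Signals were used as log2(signal + 16) in limma 3.58.1 (R 4.3.3), with 4 group means over 16 arrays, Benjamini-Hochberg adjustment of 2-sided p-values, an intensity trend, and an adjusted p below 0.05 as the threshold. Members below the filter were fitted with all 22626 probe sets. The fit was tested on simulated data. Precision is limited by the number of arrays, 4 in a group.

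Named were all members, up to 3 genes with the smallest p of each chaperone list and 9 further genes set beforehand (Hsf1, Hsp90ab1, Hspb6, Hspb7, Bag3, Dnajb1, Hsph1, Trap1, Lonp1); Pfdn1 was named after its value was seen. The members, lists and tests were chosen with earlier results of these data known. Alternatives were no filter or one on the dimmest 60%, quantile normalization or median centring, a pseudocount of 1 or 64, array weights, no intensity trend, only the groups compared, a replicate block, each array left out, and the 18S signal, Gapdh ratio or actin ratio as a covariate. Promoters came from RefSeq (GRCm38.p6), whose coordinates are those of that build.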

Additional observations from a re-analysis of the deposited data

Results flagged for a closer look

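Within groups of 4 arrays, 2 of 104 groups of member probe sets held an array far from its group, by Dixon's 95% critical value for the gap to the nearest array over the range, on the log2 scale, which chance passes in about 1 in 20 groups. On Hspb1 1425964_x_at, male sham 4 read 6385.4 while the other male shams lay between 4670 and 4767.5, and it still lay below every TAC array. On Hspa9 1418504_at, female sham 1 read 2454.9 while the other female shams lay between 3201.2 and 3296.5, and 3 of the 4 female TAC arrays lay above it.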

How the results depend on the processing

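Over single probe sets and alternatives, 3679 results kept their side of the threshold, 263 lost their call, 70 gained one and 2 reversed. A change of sign counted as a reversal only where the main or the alternative fit gave a call. Results that kept their side may therefore have changed direction while uncalled. The total includes the comparisons between the sexes, in which no member probe set had a call to lose. The Gapdh and actin ratios as covariates moved the counts of called member probe sets by over 1.5 times. With the Gapdh ratio, 1 member probe set was called in males (0 higher), 3 in females (3 higher) and 3 over both sexes (2 higher), with 2.93%, 3.67% and 4.71% of all probe sets called. With the actin ratio, 3, 2 and 5 were called, all higher, with 12.1%, 5.44% and 13.6% of all. With the 18S signal, 5, 8 and 10 were called, with 7.37%, 11.3% and 14.1% of all. Of these, 5, 8 and 9 were higher and 0, 0 and 1 lower. The Gapdh ratio does not overlap between TAC and sham, so ratio and operation are largely confounded in that fit. Dnajc21 reversed to 0.094 (adjusted p = 0.859) and Afg3l2 to -0.12 (adjusted p = 0.823) with the Gapdh ratio. Without each array in turn, 5 to 7 member probe sets were called in males, 6 to 10 in females and 10 to 13 over both sexes. The cytosolic minus mitochondrial difference of 0.91 ranged from 0.74 to 1.04 over its own alternatives. These were the scalings, the pseudocounts, the mean over all passing probe sets of a gene, and each array left out. Median centring cannot change a difference taken within arrays. The difference was not computed with the 18S, Gapdh or actin covariates, so its dependence on them was not tested. Same-numbered TAC and sham arrays showed no large shared deviation (r from -0.03 to 0.11 over 6 pairs). Such low values cannot exclude that the animals were matched, and the main fit took them as unpaired. With the replicate block, 5 member probe sets were called in males, 9 in females and 10 over both sexes. Without Hspa1b 1427127_x_at, which passed the filter through TAC alone, 7, 6 and 10 of 20 were called, an alternative chosen after seeing the data. Dim signals could not be told from background.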
